A study of Homo sapiens with 4 samples.

Results

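The clustered protocadherins are cell surface adhesion proteins of the cadherin superfamily, encoded in 3 neighbouring gene clusters, alpha, beta and gamma, on the long arm of chromosome 5. The genes were taken from the deposited transcript table by their symbols, which gave 56 genes with 100 transcripts. Of these, 22 genes with 27 transcripts had a value in each library, out of 15220 genes with values in the series. The study compared the pancreatic cancer cell line PANC-1 with the knockdown clone PZT-2, in which the 3 isoforms of the histone variant H2A.Z are depleted, at passage p12-p13 in both, with 2 libraries of each. PZT-2 was made from PANC-1 by lentiviral transduction with an shRNA against H2A.Z.1 and another against both H2A.Z.2 isoforms, each driven by the U6 promoter, and was selected with puromycin. PANC-1 here was neither transduced nor selected, and PZT-2 is 1 clone. The knockdown, the transduction and the choice of the clone therefore cannot be told apart in this comparison. The study also sequenced a transduced control line with a scrambled shRNA, for which it reports similar differences from PZT-2. No library of that line is among those used here. Nothing in the labels says whether the 2 libraries of a line came from separate cultures, whereas the study's text calls them biological replicates, so p values measure the spread between these libraries only.

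In the alpha and gamma clusters, each variable exon has its own promoter and encodes the extracellular, transmembrane and proximal cytoplasmic parts of one protein, and it is spliced to a few constant exons that encode a shared cytoplasmic tail. The beta genes consist of variable exons alone and lack such a tail. Neurons are known to choose different variable exons cell by cell, which gives each neuron its own set of homophilic adhesion molecules, whereas the C-type genes at the 3′ ends of the alpha and gamma clusters are expressed more uniformly. Most of the promoters carry a conserved element with a CGCT core, at which the insulator protein CTCF binds. Variable genes of these clusters are often methylated and silent in epithelial tumors.

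The first constant exons are shown because the reads from them belong to every full-length transcript of a cluster and cannot be assigned to 1 gene. In GENCODE 29 on GRCh38 the exon of the alpha cluster lies at chr5:140978949-140979007 and that of the gamma cluster at chr5:141494807-141494865, both on the plus strand and both coding, with 59 bases each.
alpha constant exon 1: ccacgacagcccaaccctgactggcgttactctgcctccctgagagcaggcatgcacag
gamma constant exon 1: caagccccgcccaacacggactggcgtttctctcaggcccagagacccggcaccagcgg
Placed side by side without gaps, these exons had the same base at 39 of 59 positions. Together the constant exons measured 2866 bases in the alpha cluster and 2181 bases in the gamma cluster. Shared sequence was measured on the GENCODE form of each transcript. For some transcripts its length differs from that of the quantified form, as for PCDHGA1 (4069 against 2472 bases), so that the shares are approximate. Of the 31-base words of the alpha transcripts with a value, a median of 45.6% occurred in no other gene of GENCODE 29, with 34.8% for PCDHA12. The median was 74.1% for the beta transcripts and 84.5% for the gamma transcripts, and the lowest value, 7.12%, belonged to the short PCDHGC3 transcript NM_032403. Among the beta transcripts with a value the share was lowest for PCDHB8, at 41.6%. The count of a single alpha, beta or gamma gene therefore rests in part on how the quantification divided shared reads. The sum over a cluster does so less.

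Sequences upstream of 6 genes are shown, the 4 that passed the test below and, for comparison, PCDHAC2 and PCDHB2, which did not. Each line gives the 250 bases before the annotated start in the RefSeq annotation of GRCh38.p14, on the plus strand, with CGCT and its reverse complement AGCG in capitals.
PCDHA12, chr5:140875058-140875307: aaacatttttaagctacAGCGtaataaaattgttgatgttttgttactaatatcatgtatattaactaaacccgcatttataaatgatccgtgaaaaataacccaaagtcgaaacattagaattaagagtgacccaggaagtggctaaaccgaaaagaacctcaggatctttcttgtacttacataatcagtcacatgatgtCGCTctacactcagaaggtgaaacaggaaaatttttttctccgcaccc
PCDHAC2, chr5:140966226-140966475: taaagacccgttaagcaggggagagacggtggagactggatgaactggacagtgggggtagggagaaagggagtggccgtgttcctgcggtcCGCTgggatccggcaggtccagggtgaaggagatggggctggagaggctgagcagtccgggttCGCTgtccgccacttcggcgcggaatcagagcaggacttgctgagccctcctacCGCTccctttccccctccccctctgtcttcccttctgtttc
PCDHB2, chr5:141094365-141094614: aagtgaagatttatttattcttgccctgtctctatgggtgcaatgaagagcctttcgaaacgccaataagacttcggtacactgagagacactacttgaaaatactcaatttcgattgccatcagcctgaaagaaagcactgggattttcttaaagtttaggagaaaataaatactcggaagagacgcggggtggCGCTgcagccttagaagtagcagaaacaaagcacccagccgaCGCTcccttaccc
PCDHGB2, chr5:141359886-141360135: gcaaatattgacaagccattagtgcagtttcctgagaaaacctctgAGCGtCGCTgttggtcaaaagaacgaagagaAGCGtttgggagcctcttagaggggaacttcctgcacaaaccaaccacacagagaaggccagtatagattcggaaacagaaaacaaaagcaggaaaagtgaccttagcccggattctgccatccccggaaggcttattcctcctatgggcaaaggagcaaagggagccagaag
PCDHGB7, chr5:141417427-141417676: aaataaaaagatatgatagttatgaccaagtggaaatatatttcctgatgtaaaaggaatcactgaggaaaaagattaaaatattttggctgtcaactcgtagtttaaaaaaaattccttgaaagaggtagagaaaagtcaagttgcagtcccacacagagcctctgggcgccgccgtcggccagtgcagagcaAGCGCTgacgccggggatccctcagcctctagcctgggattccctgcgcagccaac
PCDHGC3, chr5:141475716-141475965: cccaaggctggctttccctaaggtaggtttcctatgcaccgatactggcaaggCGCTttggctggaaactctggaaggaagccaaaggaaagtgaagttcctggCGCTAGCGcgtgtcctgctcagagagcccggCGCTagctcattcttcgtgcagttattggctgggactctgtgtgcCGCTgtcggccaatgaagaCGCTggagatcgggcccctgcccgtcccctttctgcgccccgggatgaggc
The letters CGCT, searched on both strands in windows of 250 bases before to 50 bases after the start, occurred in 51 of the 52 windows of 47 clustered protocadherin genes, all but that of PCDHA9. They occurred in 70% of all 35116 windows of the annotation. A match of these letters need not be the conserved element, and whether any printed match belongs to it was not tested. The letters occurred in 18 of 19 windows of the genes with a value and in 33 of 33 windows of those without. Since nearly all windows carried them, their presence could not separate these sets of genes.

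Both target genes of the knockdown were lower in PZT-2. H2AFZ, which encodes H2A.Z.1, had normalized counts of 6389 and 6034 in PANC-1 and 2212 and 2259 in PZT-2 (log2 fold change -1.47 ± 0.06 SE, adjusted p = 6.19e-05, by the quasi-likelihood test of edgeR, adjusted over all genes). H2AFV, which encodes both H2A.Z.2 isoforms, had 3344 and 3452 against 2590 and 2717 (-0.36 ± 0.06, adjusted p = 0.00564 in the same test, and 0.0558 without PZT-2 replicate 1). Normalized counts are estimated counts brought to a common library size with TMM factors, and the libraries held 12861457 to 15717524 estimated counts. All 6 ductal epithelium markers had values, and 4 of them (KRT8, KRT18, KRT19 and MUC1) were lower in PZT-2. Of 14 markers of other cell types, 6 had values, summing to 5678 to 5930 normalized counts in PANC-1 and 4300 to 4328 in PZT-2. Most of this sum was the neural marker TUBB3, with 5241 and 4980 in PANC-1 and 3938 and 4023 in PZT-2. COL1A1 and TUBB3 were lower. The endothelial marker PECAM1 had 12.4 and 4.52 normalized counts in PANC-1 and 4.03 and 8.90 in PZT-2. The neural marker SYP had 147 and 126 against 143 and 125. The neural marker RBFOX3 and the fibroblast marker ACTA2 had values too, and none of these was called. The leukocyte markers PTPRC and CD3E, the endothelial marker VWF, the islet markers INS and GCG, the acinar markers PRSS1 and CPA1 and the glial marker GFAP had no value. The part of these shifts in the results below was not tested.

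Among the 22 genes with a value, 6 belonged to the alpha cluster, 10 to the beta cluster and 6 to the gamma cluster. The 34 genes without a value comprised 9 alpha, 8 beta and 17 gamma genes, among them the C-type genes PCDHAC1, PCDHGC4 and PCDHGC5. A missing value is not a count of 0. The listed transcripts all reached at least 4.67 estimated counts in some library, and transcripts of 2 genes without a value, PCDHB10 and PCDHGA6, were included in the authors' own transcript test. On the length-corrected scale of the deposited TPM values (transcript counts per base of effective length, scaled to a common total), PCDHGC3 stood far above the other members, with a mean of 42.7 in PANC-1 and 35.3 in PZT-2. Next in PANC-1 came PCDHB2 (mean TPM 6.06), PCDHGB7 (5.73), PCDHAC2 (5.22), PCDHA12 (4.31), PCDHGB2 (4.18) and PCDHB8 (2.11). The other 15 members were under 1 TPM on average. In PZT-2 PCDHB2 (mean TPM 4.72) and PCDHAC2 (4.66) came next, in an order that differed between replicates, and PCDHGB2 had moved from the 6th to the 8th place with a mean TPM of 0.956. Between neighbouring genes in PANC-1, the libraries of PCDHB2, PCDHGB7 and PCDHAC2 lay close together (6.73 and 5.40, 5.51 and 5.95, 5.21 and 5.23 TPM), and the order of PCDHB2 and PCDHGB7 differed between replicates.

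**Figure D1:**
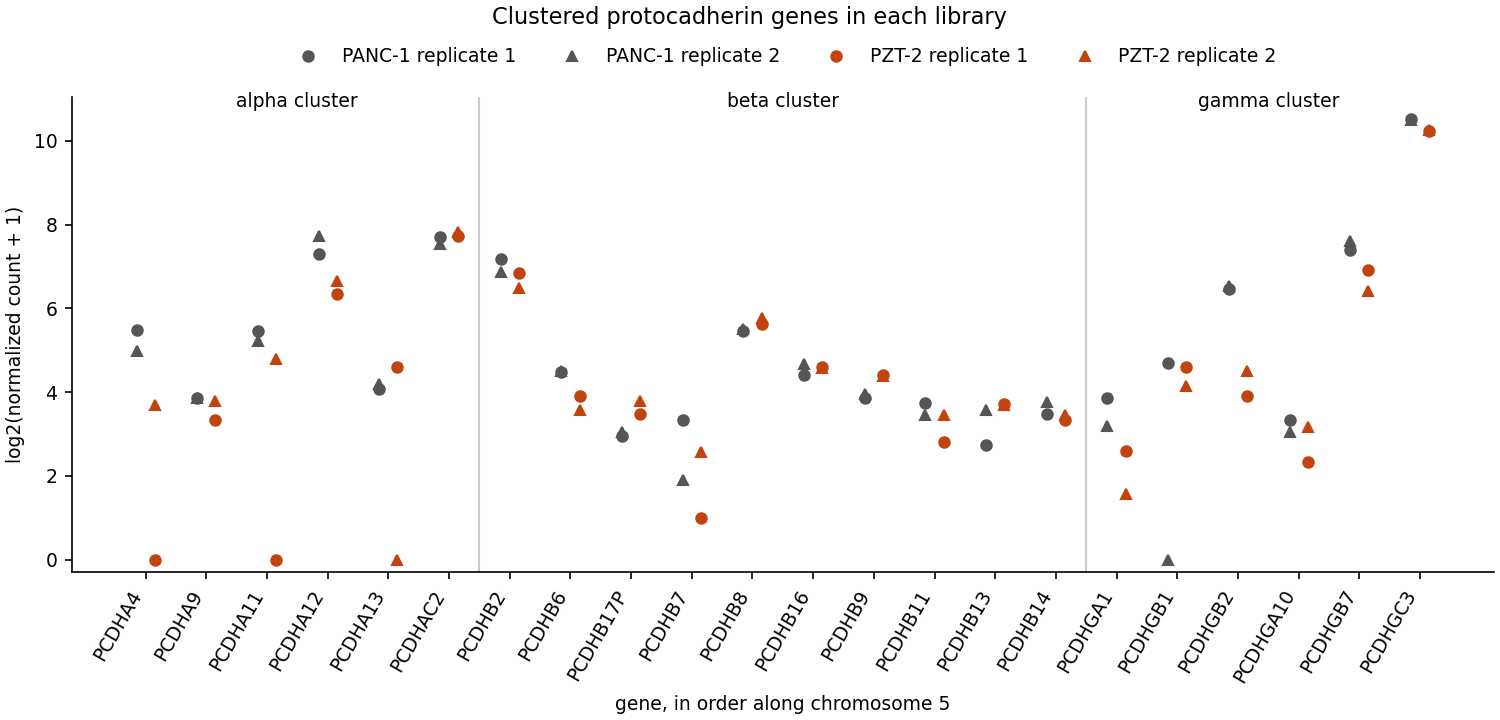
Normalized counts of the 22 clustered protocadherin genes with a value, as log2(normalized count + 1) on the vertical axis, with genes in their order along chromosome 5. Circles and triangles are replicates 1 and 2, grey for PANC-1 and orange for PZT-2. PCDHGC3 lies above all others, and 4 genes (PCDHA4, PCDHA11, PCDHA13 and PCDHGB1) are at 0 in 1 library after counts were rounded.

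Comparing PZT-2 with PANC-1, 4 of the 22 tested genes were lower and none was higher. PCDHA12, PCDHGB2, PCDHGB7 and PCDHGC3 fell, and all 4 belong to the alpha or gamma cluster. In the same edgeR test, 28.4% of 15100 genes were called, 13.7% as lower and 14.7% as higher, so that the share of members called in either direction, 18.2%, was below that of all genes, and the share called lower was near the background. At an unadjusted p under 0.05, 6 members were lower and 0 were higher, which is 27.3% of the members beside 40.6% of all genes, and DESeq2 called the same 4 genes. The libraries of the 2 lines did not overlap for 17 members (12 below PANC-1 and 5 above), which is 77.3% of the tested members beside 66.2% of all genes. The median log2 fold change was -0.38 over the members and 0.001 over all genes, with 15 members lower and 7 higher. In these bulk libraries, fewer cells expressing a gene and less RNA in each cell cannot be told apart.

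PCDHGB2, a variable gene of the gamma B group, changed most among the genes that passed. It had 87.8 and 91.3 normalized counts in PANC-1 and 14.1 and 21.8 in PZT-2, and its log2 fold change was -2.31 ± 0.27 (SE; adjusted p = 0.00197, edgeR). The PANC-1 libraries lay within a few counts of each other, and both PZT-2 libraries were far below them. With the most abundant transcript of each gene alone the call was lost (log2 fold change -1.84, adjusted p = 0.0998), and on log2(TPM + 1) the change was -1.40.

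PCDHA12, a variable gene near the 3′ end of the alpha cluster, had 155 and 211 normalized counts in PANC-1 and 80.5 and 99.9 in PZT-2. Its log2 fold change was -1.03 ± 0.20 (SE; adjusted p = 0.0115, edgeR). The groups did not overlap, although the PANC-1 replicates differed more than those of PCDHGB2. Without PZT-2 replicate 1 the call was lost (adjusted p = 0.0587, log2 fold change -0.88).

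PCDHGB7, another gamma B gene, had 168 and 193 normalized counts in PANC-1 against 119 and 84.1 in PZT-2 (log2 fold change -0.84 ± 0.19 SE, adjusted p = 0.0205, edgeR). The lowest PANC-1 library was above the highest PZT-2 library. Without PZT-2 replicate 2, the lower of the PZT-2 libraries, the change was no longer past the threshold (adjusted p = 0.0985, log2 fold change -0.61).

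PCDHGC3, the C-type gene at the start of the C group and the most abundant member, showed a small but even decrease. Its normalized counts were 1465 and 1451 in PANC-1 and 1196 and 1227 in PZT-2 (log2 fold change -0.27 ± 0.06 SE, adjusted p = 0.0177, edgeR). The replicates of either line differed far less than the lines did. This call was lost when either PZT-2 library was left out, with adjusted p = 0.124 without replicate 1 and 0.102 without replicate 2, while the fold change stayed between -0.29 and -0.25.

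**Figure D2:**
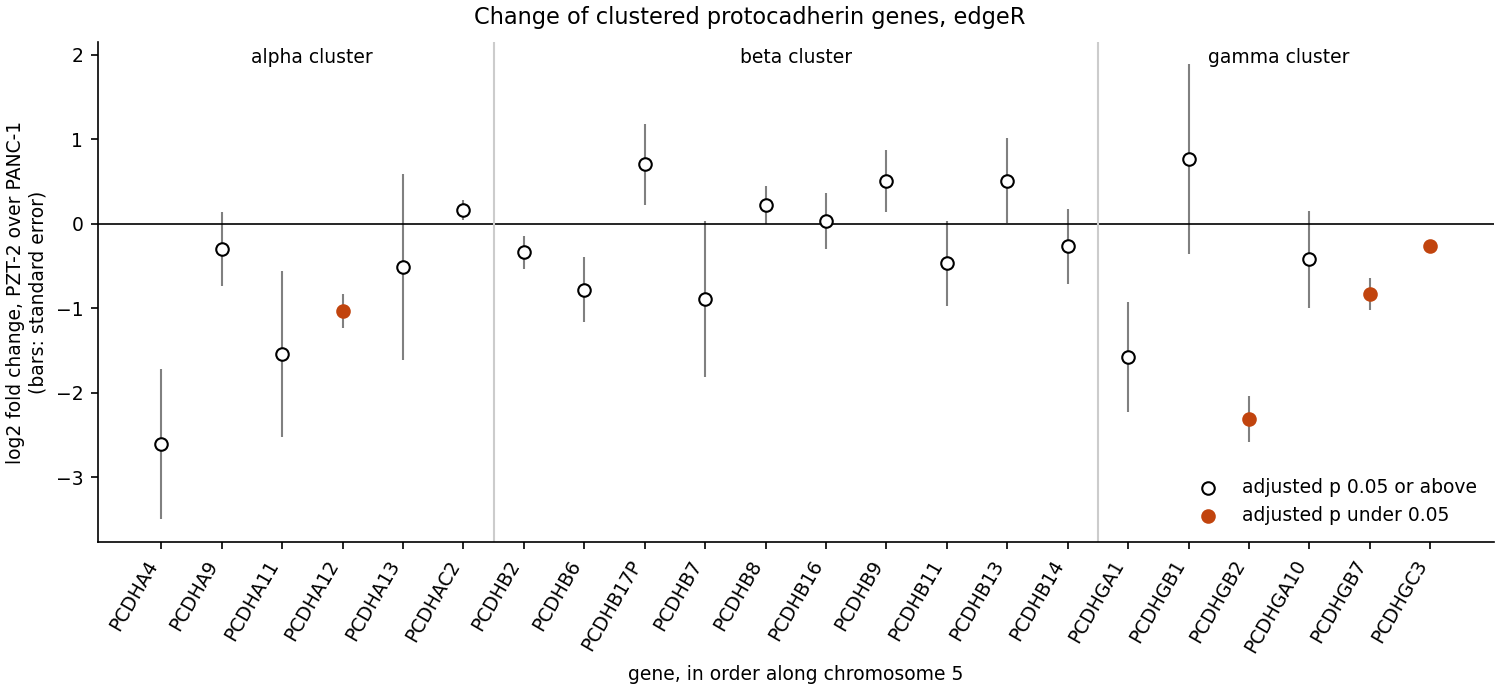
Log2 fold change of PZT-2 over PANC-1 for the 22 genes, with bars for the standard error of edgeR and genes in their order along chromosome 5. Filled points mark the 4 genes with an adjusted p under 0.05, all below 0, in the alpha and gamma clusters; the beta genes lie on both sides of 0.

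PCDHAC2, the other C-type gene with a value, did not pass the test, and whether it differed from PCDHGC3 was not tested. PCDHAC2, the last variable gene of the alpha cluster, had 208 and 184 normalized counts in PANC-1 and 211 and 226 in PZT-2, with a log2 fold change of 0.16 ± 0.12 (SE; adjusted p = 0.371, edgeR). Its direction depended on length correction, with -0.15 on length-scaled counts.

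Further alpha genes had low counts that were uneven between replicates. Only 1 of the 2 listed transcripts had a value for each of PCDHA4, PCDHA11 and PCDHA13. A 0 for these genes can depend on how shared reads were assigned, and need not mean that their RNA was absent. PCDHA4 had 43.9 and 30.7 normalized counts in PANC-1 and 0 and 11.9 in PZT-2, and its log2 fold change of -2.61 ± 0.89 (SE) was not past the threshold (adjusted p = 0.0724, edgeR). PCDHA11 had 42.8 and 36.1 in PANC-1 against 0 and 26.7 (-1.54 ± 0.98, adjusted p = 0.296). In both genes the 0 was in PZT-2 replicate 1 and both PZT-2 libraries were under those of PANC-1. PCDHA13, with 15.8 and 17.2 in PANC-1 and 23.2 and 0 in PZT-2, showed the opposite replicate at 0. When that replicate was left out the log2 fold change of PCDHA13 turned from -0.51 to 0.49, and without replicate 1 it was called lower (adjusted p = 0.0171). Without PZT-2 replicate 2, PCDHA4 (adjusted p = 0.011) and PCDHA11 (adjusted p = 0.00859) were called lower too, so that single libraries decided these values. PCDHA4 was also called without PANC-1 replicate 2 (adjusted p = 0.0285). PCDHA9 had 13.5 and 13.6 normalized counts in PANC-1 and 9.06 and 12.9 in PZT-2 (adjusted p = 0.659, edgeR).

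Gamma genes with low counts were uneven too. Only 1 of the 2 listed transcripts of PCDHGB1 had a value, so that its 0 has the same limit as those of the alpha genes. PCDHGB1 had 24.8 and 0 normalized counts in PANC-1 and 23.2 and 16.8 in PZT-2, so that the groups overlapped (log2 fold change 0.76 ± 1.12 SE, adjusted p = 0.663, edgeR). It was called higher when PANC-1 replicate 1 was left out, which leaves the library at 0 as the only PANC-1 library (adjusted p = 0.00209). PCDHGA1 had 13.5 and 8.13 in PANC-1 against 5.03 and 1.98 in PZT-2, below PANC-1 without overlap but not past the threshold (-1.58 ± 0.65, adjusted p = 0.122). PCDHGA10 had under 10 normalized counts in every library.

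No beta gene passed the test, with 5 of 10 lower, 5 higher and a median log2 fold change of -0.12. PCDHB2, the most abundant, had 143 and 115 normalized counts in PANC-1 and 114 and 89.0 in PZT-2 (log2 fold change -0.34 ± 0.19 SE, adjusted p = 0.237, edgeR). The groups were apart by about 1 count between PANC-1 replicate 2 and PZT-2 replicate 1, and the fold change ranged from -0.53 without PZT-2 replicate 1 to -0.17 without PZT-2 replicate 2. PCDHB8 had 42.8 and 44.3 in PANC-1 against 48.3 and 53.4 in PZT-2 (0.22 ± 0.23, adjusted p = 0.512), and PCDHB9 had 13.5 and 14.5 against 20.1 and 19.8 (0.51 ± 0.37, adjusted p = 0.359). Both were above PANC-1 in each PZT-2 library. PCDHB16 was close to equal, with 20.3 and 24.4 in PANC-1 and 23.2 and 22.7 in PZT-2. Of the 10 beta genes, 8 had a mean under 30 normalized counts, and the standard errors of these 8 were all above the size of the change of PCDHGC3, so that a change of that size was not detectable in them at this depth.

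Counts were also summed by cluster, as a description without a test. The alpha cluster summed to 480 and 493 normalized counts in PANC-1 and 324 and 377 in PZT-2, a log2 ratio of -0.47. The gamma cluster summed to 1766 and 1751 against 1362 and 1359 (log2 ratio -0.37). For the beta cluster the sums were 286 and 261 against 258 and 244 (log2 ratio -0.12). In each cluster the PZT-2 sums were under those of PANC-1, by a margin of a few counts in the beta cluster and of several times the replicate difference in the gamma cluster.

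The C-type genes were then summed apart from the variable genes, a split chosen after the values were seen. The 5 alpha genes without PCDHAC2 summed to 272 and 309 normalized counts in PANC-1 and 113 and 151 in PZT-2, with a log2 ratio of -1.14 that ranged from -1.36 to -0.95 when each library was left out in turn. The 5 gamma genes without PCDHGC3 summed to 302 and 299 against 165 and 132, with a log2 ratio of -1.01 (range -1.18 to -0.86). The 2 C-type genes summed to 1673 and 1636 against 1408 and 1453, a log2 ratio of -0.21. Most of this sum was PCDHGC3, with a mean of 1458 of 1655 normalized counts in PANC-1. PCDHAC2 went the other way, with a log2 fold change of 0.16 and no call. The variable alpha genes thereby went from 11.5% to 6.71% of all clustered protocadherin counts, the variable gamma genes from 11.9% to 7.59%, the beta genes from 10.9% to 12.8% and the C-type genes from 65.7% to 72.9%. These sums contain the called genes PCDHA12, PCDHGB2 and PCDHGB7, and the difference between the kinds of gene was not tested.

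At the level of transcripts, none of the 26 tested clustered protocadherin transcripts passed edgeR's test, in which 0.148% of 30403 transcripts were called. At an unadjusted p under 0.05, 3 were lower and 1 was higher, and DESeq2 called 3 as lower, NM_018903 of PCDHA12, NM_018939 of PCDHB6 and NM_002588 of PCDHGC3.

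The counts of PCDHB6 were assigned to a different transcript in each line. The unspliced transcript NM_018939 of 3266 bases had 21.7 and 21.6 normalized counts in PANC-1 and 0 in both PZT-2 libraries, whereas NM_001303145 of 3061 bases had 0 in both PANC-1 libraries and 14.0 and 11.1 in PZT-2. No fold is given, since most of the sequence of these transcripts is shared and a value of 0 for one of them can depend on how shared reads were assigned. Neither passed the adjusted test (adjusted p = 0.12 and 0.139, edgeR on transcripts). The listed lengths differ by 205 bases, the length of the stretch that is spliced out of NM_001303145, inside the coding sequence of the longer transcript. In GENCODE 29 it lies at chr5:141150290-141150494 on GRCh38, plus strand, and it is shown because reads from it, or across its ends, tell the transcripts apart. Capitals mark its ends.
PCDHB6 stretch: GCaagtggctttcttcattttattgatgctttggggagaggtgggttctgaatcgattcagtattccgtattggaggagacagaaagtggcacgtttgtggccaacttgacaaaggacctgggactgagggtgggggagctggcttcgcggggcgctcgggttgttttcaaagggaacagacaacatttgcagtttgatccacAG
It makes up 6.28% of the longer transcript, and the reads that fell on it are not known from these files. Summed over both transcripts and rounded, the gene had 21.4 and 21.7 normalized counts in PANC-1 and 14.1 and 10.9 in PZT-2, without a call (log2 fold change -0.78 ± 0.38 SE, adjusted p = 0.18, edgeR).

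The full-length and short transcripts of the alpha and gamma genes divided less evenly between replicates. For PCDHGB2, the full-length transcript NM_018923 had 50.4 normalized counts in PANC-1 replicate 1 and 0 in the other 3 libraries, while the short transcript NM_032096, which lacks the constant exons, had 37.6 and 91.0 in PANC-1 and 14.2 and 21.4 in PZT-2. For PCDHGB7, the full-length NM_018927 had 115 and 155 in PANC-1 and 119 and 37.9 in PZT-2, and the short NM_032101 had 52.3 and 38.3 against 0 and 46.0. For these genes the division varied between replicates of 1 line, and the gene sums varied less. For PCDHAC2, the full-length NM_018899 had 179 and 137 in PANC-1 and 212 and 218 in PZT-2, and the short NM_031883 had 29.7 and 47.6 against 0 and 8.12. The PZT-2 libraries did not overlap those of PANC-1 for either PCDHAC2 transcript, in opposite directions, and neither was called (adjusted p = 0.398 and 0.484, edgeR on transcripts). Only the short form had a value for PCDHGA1, PCDHGA10 and PCDHGB1. Together, transcripts without the constant exons held 10.7% of the alpha counts in PANC-1 and 4.3% in PZT-2, and 8.0% and 5.18% of the gamma counts. By library, the alpha share was 9.05% and 12.4% in PANC-1 and 2.91% and 5.5% in PZT-2, and the gamma share was 7.73% and 8.27% against 3.4% and 6.95%, so that the gamma value of PZT-2 replicate 2 was close to PANC-1.

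Of 24 tested neighbours of the clusters on 5q31, 2 were higher and 1 was lower (12.5% called, beside 28.4% of all genes), with a median log2 fold change of -0.06. TAF7, a general transcription factor gene between the beta and gamma clusters, had 1526 and 1662 normalized counts in PANC-1 and 1695 and 1950 in PZT-2 (log2 fold change 0.19 ± 0.09 SE, adjusted p = 0.149, edgeR). ZMAT2, upstream of the alpha cluster, was at -0.06 (adjusted p = 0.511) and the formin gene DIAPH1, downstream of the gamma cluster, at 0.04 (adjusted p = 0.655). SLC25A2 had no value. The called neighbours were the monocyte antigen gene CD14 (3.86, from 3.38 and 0 to 16.1 and 31.6 normalized counts), FCHSD1 (0.51) and the solute carrier gene SLC35A4 (-0.63).

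Of 6 tested protocadherins outside the clusters, 2 were called by edgeR, both lower (33.3%, beside 13.7% of all genes called lower): PCDH7, with 178 and 227 normalized counts in PANC-1 and 22.1 and 30.7 in PZT-2 (log2 fold change -2.94 ± 0.23 SE, adjusted p = 0.000522), and PCDH1 (-1.26, adjusted p = 0.0369). Of 9 tested classical and related cadherins, 3 were called, all lower, which is also 33.3%. These were the neural cadherin gene CDH2 (890 and 906 against 278 and 222 normalized counts, log2 fold change -1.84 ± 0.11 SE), the epithelial cadherin gene CDH1 (-3.79 ± 0.72) and the placental cadherin gene CDH3 (-1.25 ± 0.23). CDH1 had 116 and 148 normalized counts in PANC-1 against 0 and 18.8 in PZT-2, so the size of its change depends on a library at 0. The fold change of PCDH7 was larger in size than that of any called clustered protocadherin, and that of CDH2 was larger than all but that of PCDHGB2. The medians of the log2 fold changes were -0.92 for the protocadherins outside the clusters and -1.2 for the cadherins, beside -0.38 for the clustered genes.

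Of 21 genes known to act on the choice or silencing of clustered protocadherin promoters, all tested, 9 were lower and 1 was higher. Thus 47.6% were called and 42.9% were lower, beside 28.4% and 13.7% of all genes. These shares are not matched for abundance. The least abundant of the 21, DNMT3B, had means of 90.6 normalized counts in PANC-1 and 118 in PZT-2, whereas all genes include those with 5 counts in 2 libraries. The list was also chosen with earlier results of these data known. The gene called higher was DNMT3A, a de novo DNA methyltransferase, with 240 and 285 normalized counts in PANC-1 and 570 and 569 in PZT-2 (log2 fold change 1.11 ± 0.10 SE, adjusted p = 0.000974, edgeR). The lower ones included ATF7IP, a partner of the histone methyltransferase SETDB1 (-0.67), and the cohesin gene STAG2 (-0.65) and cohesin loader gene NIPBL (-0.63). Of the other DNA methyltransferase genes listed, DNMT1 was lower (-0.41, adjusted p = 0.00588, edgeR) and DNMT3B was not called (0.37, adjusted p = 0.382). CTCF was at -0.23, without a call (adjusted p = 0.0704, edgeR). Among 23 tested signalling and processing partners, 6 were higher and 5 lower (47.8% called). RET, a receptor tyrosine kinase that binds clustered protocadherins, fell from 201 and 183 normalized counts in PANC-1 to 15.1 and 19.8 in PZT-2 (-3.45 ± 0.20). The beta-catenin gene CTNNB1 rose from 2015 and 2264 to 4959 and 5432 (1.28 ± 0.08). WASF3, a member of the WAVE family that protocadherin tails recruit, was higher by 1.23 on the log2 scale, and BRK1, a subunit of the WAVE complex, by 0.47. NCKAP1, another subunit of that complex, was lower (-0.27, adjusted p = 0.0287, edgeR), as was its activator RAC1 (-0.26, adjusted p = 0.0166). WASF1 was at -0.05 and WASF2 at -0.03, without a call.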

How the data were processed

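Poly(A)-enriched, stranded RNA-seq libraries (paired reads of 76 bases) of PANC-1 and PZT-2 were compared, 2 of each. Per the labels and the study's methods, the authors used Trim Galore 0.4.1 for trimming and kallisto 0.43.0 for abundances, on an index of RefSeq transcripts, and exported the values from sleuth 0.29.0. The submitters' processing notes name the build hg19, and the index release is not given in the sources used here. The deposited estimated counts were not whole, since the authors' software had scaled each library by a factor. This factor was found from the low values (45.2% to 46.4% of the low values were then within 0.01 of a whole number, against 0.815% to 2.41% as deposited) and undone, and counts were rounded. The deposited TPM values, a signal scaled by the authors' software in the same way, were used to compare levels between genes and in 2 alternatives. The table of the authors' test holds effects, p-values and q-values that were not used. Only its transcript names, its gene symbols and whether a transcript had been tested were read.

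Transcripts were summed to genes, 27049 by the table's symbol and 3925 by accession in RefSeq (GRCh38.p14), which left 103 unnamed (0.0466% of counts). By accession 1 more transcript, of the pseudogene PCDHB19P, falls outside the choice by symbol and was not counted as a member. Those that reached 5 counts in at least 2 libraries were tested with edgeR 4.0.16 in R 4.3.3 (TMM factors, quasi-likelihood test, cell line as the only term), with a Benjamini-Hochberg adjusted p under 0.05 over all of them as the threshold. With 2 against 2 libraries the smallest p of an exact permutation test is 0.333, so none was made. Errors are the standard errors of the fit. 

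Named were all members called, the 5 most abundant genes of each cluster, the C-type genes, the target genes, up to 4 called genes of each list and the 4 genes beside or between the clusters; other genes named were chosen after their values were seen. The members and lists were chosen with earlier results of these data known. Alternatives were RLE size factors, DESeq2 1.42.0, other filters, limma-trend (limma 3.58.1) on log2(TPM + 1) and log2(TPM + 0.1), counts as deposited, the most abundant transcript, length-scaled counts, a replicate block and leaving out each library. All 100 transcripts were matched to GENCODE 29 for exons and shared sequence, and promoters came from RefSeq.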

Additional observations from a re-analysis of the deposited data

How the results depend on the processing

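With 4 genes called lower and 0 higher, the counts of called genes stayed within 1.5 times under all alternatives but 2. With only the most abundant transcript of each gene, 2 genes were called lower, PCDHGC3 and PCDHB6, while calls over all genes went from 4286 to 2124. There PCDHA12 was at -1.03 (adjusted p = 0.0536), PCDHGB7 at -0.79 (0.41) and PCDHGB2 at -1.84 (0.0998), in edgeR. A like count did not mean the same genes. Which genes were called changed with the library left out, and of the 4 only PCDHGB2 kept its call in each such fit. Leaving out each library in turn gave 3 to 5 genes called lower and 0 to 1 called higher. For transcripts, DESeq2 called 3 as lower against 0 by edgeR, and leaving out each library gave 0. In the fit with a replicate block, 4 genes were called lower and 0 higher, and 0 transcripts in either direction. Deviations of libraries with the same number from their line's mean correlated at -0.0238 over 15100 genes, so that no effect shared by same-numbered libraries was seen. Whether such libraries were cultured or prepared together cannot be told from this value. In leave-one-out fits the lone library is assumed to vary like the other line.

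The summed alpha cluster was at -0.63 (log2 ratio) on deposited TPM, and the gamma cluster at -0.41 on TPM and -0.39 on counts as deposited. With each library left out, the sums ranged from -0.59 to -0.37 for alpha, -0.19 to -0.058 for beta and -0.38 to -0.36 for gamma. Directions turned for 4 named genes without a call. PCDHAC2 was at -0.14 on log2(TPM + 1), -0.16 on log2(TPM + 0.1) and -0.15 on length-scaled counts. PCDHB16 was at -0.0049, -0.0089 and -0.0017 under the same settings and -0.093 without PANC-1 replicate 1, and its values with a library left out reached 0.17. With each library left out, PCDHA13 ranged from -7.06 to 0.49 and PCDHGB1 from -0.32 to 7.38, where the extremes come from a line with its only library at 0 and depend on the prior count. PCDHGB2 was called in 13 of 14 alternatives, and PCDHA12, PCDHGB7 and PCDHGC3 in 12 each. PCDHA4 was called in 3 of 13.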
